A study of Ovis aries with 3 samples.

Results

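The transcripts described here were abundant in the cecum and the proximal colon of the sheep and nearly absent from the duodenum. They were chosen from the measured levels themselves. A protein-coding transcript (RefSeq accession beginning with XM_ or NM_) was taken where its level was at least 5 RPKM in both the cecum and the colon and at most 0.5 RPKM in the duodenum, with the cecum and the colon within 3-fold of each other. RPKM is the number of reads per kilobase of transcript and per 1000000 reads of the library, so levels can be compared between transcripts of different length. Of 68818 protein-coding transcripts with reads, 78 met these limits, and 34 remained once transcripts that share an exon were counted once. They were 0.338% of the 10073 sets of transcripts that met the limits for the cecum and the colon. Since these limits chose the transcripts, the difference from the duodenum is given below as a description, with no test.

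The RNA came from intestinal mucosal epithelium of small-tailed Han sheep, a Chinese fat-tailed breed. There were 3 libraries, 1 each for duodenum, cecum and colon, and each was a pool of 3 ewes aged 11 months. All 3 libraries were made the same way from total RNA of animals of the same breed, sex and age, and no treatment is named. Each region is therefore a single measurement in which the animals cannot be separated, and the intervals given below cover counting error only.

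The duodenum is the first segment of the small intestine and receives gastric contents, bile and pancreatic juice, whereas the cecum and colon house the dense microbial community that ferments what remains of the feed and reabsorb water and salts. Segments of the gut keep their identity partly through HOX genes, which lie in clusters and are used in an order along the body axis that follows their order on the chromosome, the more posterior genes being active further back. Lymphocytes are likewise addressed to gut segments, because the epithelium of each segment secretes its own attractants for cells that carry the matching receptor.

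Library depth, as the read total in the deposited files, was between 46.3 M reads (M, 1000000), for the cecum, and 53.8 M reads, for the colon, with 50.8 M for the duodenum. Of 11 epithelial markers, 6 were found, and they summed to 2373, 3298 and 2847 RPKM in duodenum, cecum and colon. EPCAM, an adhesion molecule of epithelial cells, was at 582 RPKM in duodenum, 550 in cecum and 596 in colon, while CLDN4, a tight junction protein, was at 24.3, 2.82 and 6.18 RPKM. Other cell types differed between the regions. The summed level of the 6 smooth muscle markers found among the 9 on the list was 1028 RPKM in duodenum, 5044 in cecum and 3538 in colon, none of them at 0. The 4 fibroblast markers found, of 8, summed to 364, 1244 and 627 RPKM in the same order, and the 8 leukocyte markers found, of 11, summed to 6924, 3897 and 946 RPKM. The part of these cell types in the values below was not tested. In such tissue RNA, fewer cells of a type and less RNA per cell cannot be told apart.

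Only 12 of the 34 transcripts could be paired with a RefSeq gene symbol (assembly ARS-UI_Ramb_v3.0), and 2 of these symbols are uncharacterised LOC names. The other 22 are called by their accession. Several of the 34 overlap each other without sharing an exon, and joining those left 28 separate places, 12 of them with a symbol. In the duodenum the levels ran from 0 to 0.493 RPKM with a median of 0.206. In the cecum they ran from 5.28 to 606 RPKM with a median of 13.5, and in the colon from 5.04 to 451 RPKM with a median of 14.9. Most of these transcripts were moderate in level, 22 of them averaging below 20 RPKM over cecum and colon and 3 averaging at least 50. Summed over the 34, 992 reads lay in duodenum, 111207 in cecum and 137802 in colon, overlapping transcripts being counted more than once. Where the duodenum had reads, the cecum was 15.6-fold to 1440-fold above it and the colon 13.6-fold to 1072-fold. The median log2 ratio of the large intestine over the duodenum, with 0.5 RPKM added to both, was 4.69, against 0.01 over the 10073 sets.

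**Figure D1:**
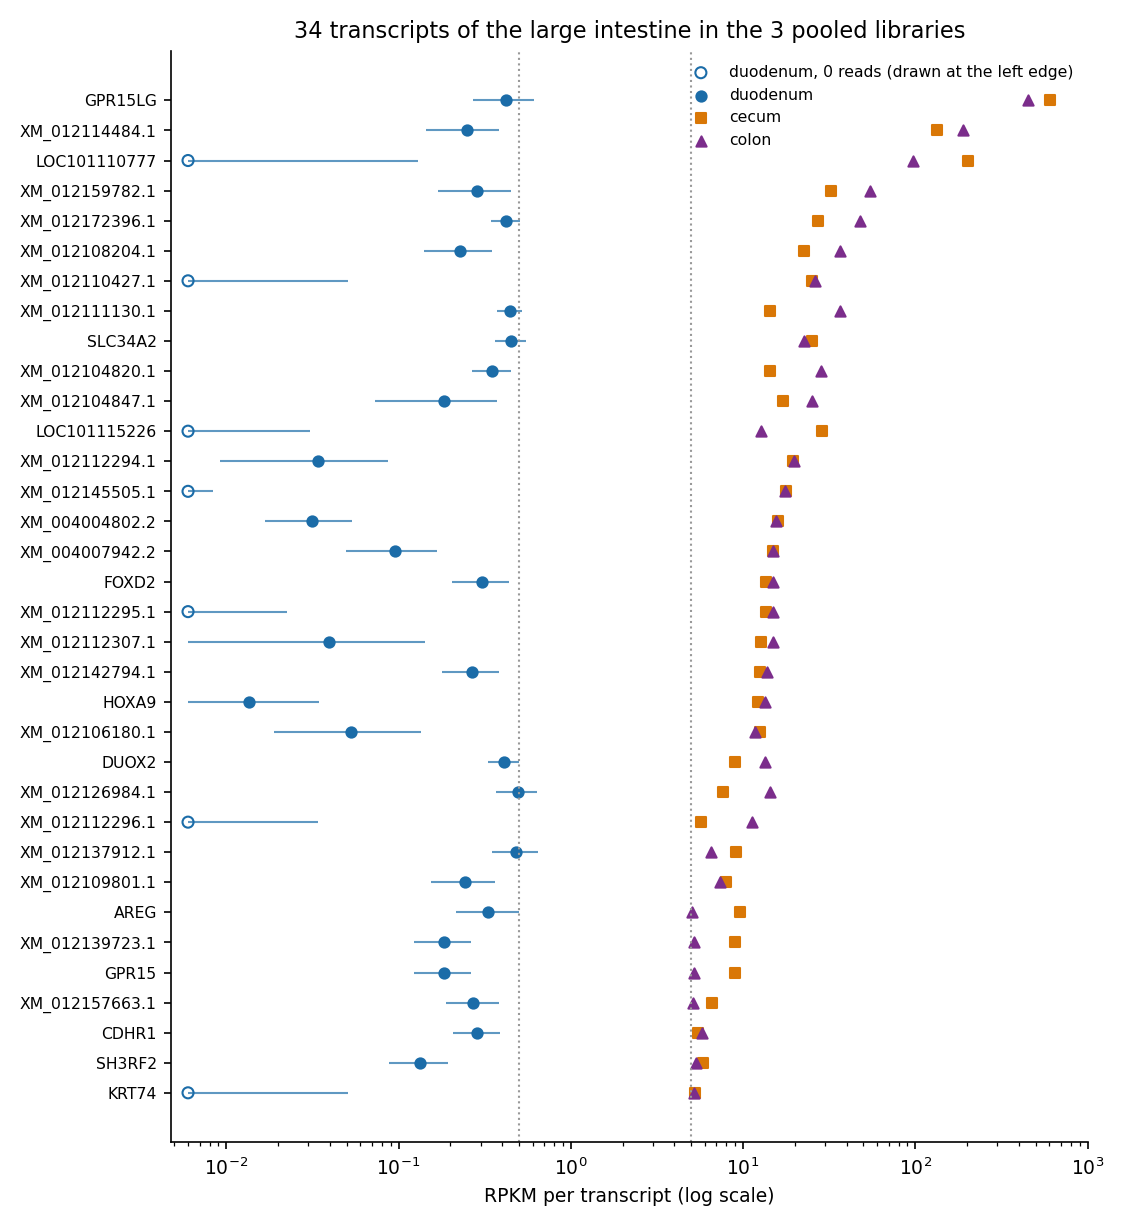
RPKM of the 34 transcripts in the duodenum (circles, with 95% Poisson intervals cut off at the left edge), cecum (squares) and colon (triangles) on a log axis, ordered by the mean of cecum and colon. Dotted lines mark the limits of 0.5 and 5 RPKM, and open circles at the left edge are the 7 transcripts with 0 duodenal reads.

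The most abundant of the 34 was GPR15LG, which encodes a small secreted protein that binds the receptor GPR15. It stood at 0.421 RPKM in duodenum (25.27 reads), 606 RPKM in cecum (33143.5 reads) and 451 RPKM in colon (28675.1 reads). Among the 7047 named genes this placed it 83rd in the cecum, 93rd in the colon and 5920th in the duodenum. The cecum was 1440-fold above the duodenum (95% interval 986 to 2249) and the colon 1072-fold (734 to 1674).

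Its receptor was also among the 34. GPR15, a G protein-coupled receptor on T cells known for directing them to the large intestine, was at 0.185 RPKM in duodenum, 8.94 in cecum and 5.16 in colon. The cecum was 48.4-fold above the duodenum (33.7 to 72.9) and the colon 27.9-fold (19.4 to 42.2). GPR15 is a gene of 1 exon, and a second accession, XM_012139723, covered 3097 of its 3100 bases and repeated its values, so the pair is a single observation. The rule fixed the duodenum as the lowest region for both ligand and receptor. It left the order of cecum and colon free, and both had the cecum above the colon, as did 64.6% of the 10073 sets.

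Other pairs of attractant and receptor were looked up after the values of GPR15LG had been seen. CCL25, the chemokine of the small intestinal epithelium, was at 835 RPKM in duodenum, 2.97 in cecum and 4.15 in colon, which made the duodenum 281-fold and 201-fold higher. Its receptor CCR9 was at 19.2 RPKM in duodenum, 1.51 in cecum and 0.916 in colon. These levels ran opposite to those of GPR15LG and GPR15. CCL28, a chemokine of mucosal epithelia in general, was at 62.4 RPKM in duodenum, 68.6 in cecum and 44.98 in colon, and its receptor CCR10 was at 24.1, 15.1 and 4.48 RPKM in the same order. General T cell genes had another order of regions than GPR15. CD3E, a chain of the T cell receptor complex, was at 111 RPKM in duodenum, 68.4 in cecum and 56.9 in colon, and CD3D at 92.6, 59.95 and 58.1 RPKM.

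**Figure D2:**
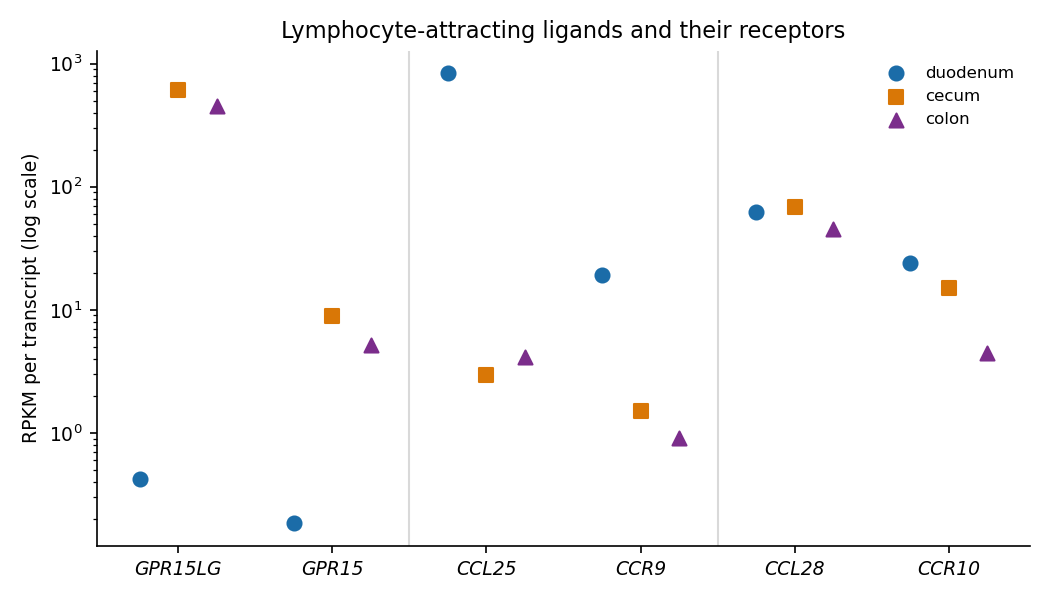
RPKM per transcript on a log axis for 3 pairs of ligand and receptor, with the duodenum as circles, the cecum as squares and the colon as triangles, 1 pooled library each. GPR15LG and GPR15 lie lowest in the duodenum, as the rule required, CCL25 and CCR9 highest there, and CCL28 lies between 44.98 and 68.6 RPKM.

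The neighbourhood of HOXA9 gave 6 of the 34 transcripts. HOXA9, a posterior homeobox transcription factor of the HOXA cluster, had 4 reads in the duodenum (0.0136 RPKM), against 3291.51 reads in cecum (12.3 RPKM) and 4179.74 in colon (13.4 RPKM). The cecum was 903-fold above the duodenum (95% interval 352 to 3317) and the colon 987-fold (385 to 3624). With so few duodenal reads the intervals were wide.

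In the coordinates of the files, which carry no chromosome, HOXA9 runs from 68863954 to 68870804, and 5 more of the 34 transcripts lay beside it in a span of 41649 bases. XM_012112296, starting 16.2 kb before HOXA9, was at 0, 5.73 and 11.3 RPKM in duodenum, cecum and colon. XM_012112295, starting 5.73 kb before it, was at 0, 13.5 and 14.9 RPKM. XM_012112294 overlapped HOXA9 over 2322 bases and was at 0.0339, 19.6 and 19.6 RPKM. On the other side, XM_012112307 and XM_004007942 overlapped each other over 704 bases. They were at 0.0397, 12.7 and 14.9 RPKM and at 0.0955, 14.98 and 14.87 RPKM. None of these 5 accessions was paired with a symbol, and no name was given to them from their position.

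The cecum and the colon were alike in HOXA9 and its nearest neighbours and parted at the edge of the group. A further transcript that shares exons with XM_012112296 and reaches outward, to 23.7 kb before HOXA9, was at 0 RPKM in duodenum, 2.51 in cecum and 13.6 in colon, outside the limits. On the opposite side, 65.2 kb past the start of HOXA9, HOXA2 was at 0.479, 1.34 and 1.82 RPKM.

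**Figure D3:**
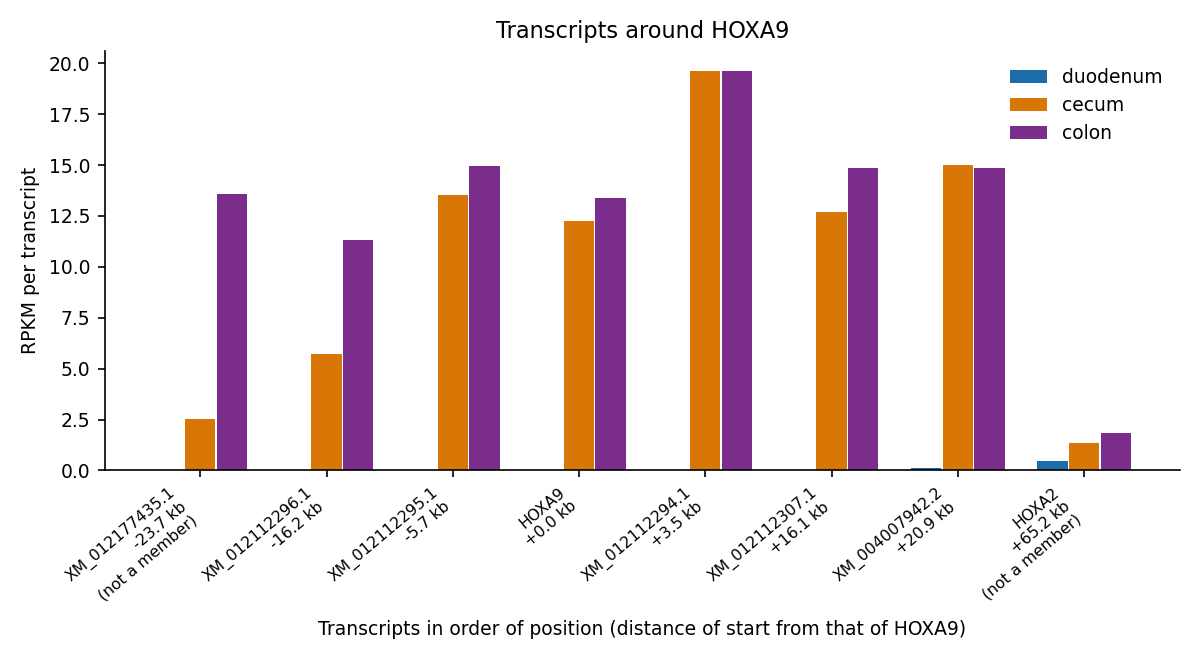
RPKM per transcript in duodenum, cecum and colon for the transcripts around HOXA9, in order of position, with the distance of each start from that of HOXA9 in kb. Bars of the 6 chosen transcripts are near 0 in the duodenum, and HOXA2 at the right is low in every region.

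Of 38 HOX genes on a list, 14 could be paired with transcripts and 10 reached 1 RPKM in some region. Of these, 9 were at least 2-fold higher in both cecum and colon than in the duodenum and 0 were at least 2-fold lower in both, with a median log2 ratio of 2.63. HOXA9, which the rule itself chose, is 1 of the 9, and without it 8 of 9 were higher. HOXB13 also counts among them, with a cecal level of 0.0704 RPKM against 0 in the duodenum. Over all 5834 named genes that reached 1 RPKM, 6.7% were 2-fold higher in both, 5.43% were 2-fold lower in both, and the median was 0.00. Of the 14 HOX genes that could be paired, HOXA9 met the limits of level and balance. HOXB9 was much higher in all regions, at 2.88 RPKM in duodenum, 105 in cecum and 79.9 in colon, and so lay above the duodenal limit. HOXC6 was at 0.752, 22.7 and 6.90 RPKM. HOXD10 was a cecal transcript, at 0.0108, 3.93 and 0.292 RPKM, and HOXB13, the most posterior gene of its cluster, a colonic one, at 8.07 RPKM in the colon. HOX genes are also used in gut muscle and connective tissue, whose markers were higher in the cecum and colon libraries: DES, a muscle filament protein, was at 199, 1376 and 901 RPKM. That part was not tested.

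FOXD2, a forkhead transcription factor, was the other listed regulator among the 34. It was at 0.304 RPKM in duodenum, 13.6 in cecum and 15.02 in colon, so that the cecum was 44.6-fold (95% interval 30.9 to 66.9) and the colon 49.4-fold (34.3 to 74.1) above the duodenum. It is a gene of 1 exon. XM_012142794 overlapped 1782 of its 1877 bases and gave 0.266, 12.5 and 13.9 RPKM with the same 29 duodenal reads. Of the 34 regional transcription factors other than HOX on the list, 9 were found and 8 reached 1 RPKM. Of these, 2 were 2-fold higher in both large intestinal regions and 1 was lower. FOXD2, which the rule itself chose, is 1 of the 2, and without it 1 of 7 was higher. Over all named genes that reached 1 RPKM, 6.7% were higher in both and 5.43% lower. The second higher gene was CDX1, a caudal homeobox factor of intestinal epithelium, at 5.34, 25.6 and 24.7 RPKM. The lower one was ONECUT2, at 21.5, 0.0398 and 0.0343 RPKM. None of the 12 named transcripts was on the other 14 lists, which covered transport, fermentation products, mucus, hormones, sulfation and marker genes. Whether a listed gene is among the 22 without a symbol could not be seen.

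DUOX2, SLC34A2 and AREG encode proteins that work at the apical face of epithelial cells or act on the epithelium. DUOX2, an oxidase that releases hydrogen peroxide into the gut lumen, was at 0.409 RPKM in duodenum (97.06 reads), 9.005 in cecum and 13.4 in colon. The cecum was 22.0-fold (95% interval 18.0 to 27.3) and the colon 32.9-fold (26.9 to 40.7) above the duodenum. All 6 transcripts of DUOX2 met the limits. DUOXA1, which helps the related oxidase to mature and lies 2 genes from DUOX2 in RefSeq order, was at 0, 0.313 and 0.656 RPKM. NOXO1, an organiser of the colonic oxidase complex, was at 2.75, 11.6 and 17.5 RPKM, the same order of regions as DUOX2.

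SLC34A2, a sodium-dependent phosphate cotransporter of apical membranes, was at 0.448 RPKM in duodenum (90.83 reads), 25.3 in cecum and 22.6 in colon. The cecum was 56.4-fold (45.8 to 70.1) and the colon 50.5-fold (41.0 to 62.7) above the duodenum. Of its 7 transcripts, 4 met the limits. The other 3 had 0.531 to 0.553 RPKM in the duodenum and about the same levels as the chosen one in cecum and colon, so the gene sat on the duodenal limit. SLC20A1, a phosphate transporter of another family, was at 18.9, 46.2 and 68.8 RPKM, and SLC34A1, the renal cotransporter, at 0.0875, 0 and 0 RPKM.

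AREG encodes amphiregulin, a ligand of the epidermal growth factor receptor. It was at 0.332 RPKM in duodenum (23.81 reads), 9.65 in cecum and 5.04 in colon. The cecum was 29.0-fold (19.2 to 45.3) and the colon 15.2-fold (9.95 to 23.8) above the duodenum. Of its 7 transcripts, 3 met the limits and the other 4 missed the colon limit by a small amount, at 4.81 to 4.996 RPKM. EPGN, another ligand of this receptor family, was at 0, 0 and 0.0777 RPKM.

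Of the other named genes, KRT74 and CDHR1 are best known from tissues other than gut. KRT74, a keratin of the hair follicle sheath, had 0 reads in the duodenum and was at 5.28 RPKM in the cecum (347.21 reads) and 5.20 in the colon (397.93 reads). Its exons were read unevenly. Only those numbered 7 to 9 were listed in any library. Exon 7, of 222 bases, had 1 read in the cecum library and 0 in the other libraries. Exon 9, of 1163 bases, held 331.27 of the cecal and 359.57 of the colon reads. Exons numbered below 7 are not in the length used. Counting them would lower its level, which lies near the limit of 5 RPKM, so reads along the whole KRT74 gene are not shown. KRT71, the keratin next to it in RefSeq order, was at 0, 0 and 0.111 RPKM. Markers of squamous epithelium stayed low, with KRT13 at 0.153, 0.404 and 0.983 RPKM. CDHR1, a cadherin-related protein of photoreceptors, was at 0.287, 5.46 and 5.82 RPKM, with all 16 exons higher in both large intestinal regions than in the duodenum. CDHR2, its relative in the brush border, was at 121, 120 and 138 RPKM. SH3RF2, a ring finger protein with SH3 domains, was at 0.133, 5.85 and 5.36 RPKM.

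Both LOC transcripts had 0 duodenal reads and were more abundant in the cecum. LOC101110777, with 3 exons and 558 bases the shortest of the 34, was at 203 RPKM in the cecum (5252.89 reads) and 97.5 in the colon (2927.8 reads). Against a floor of 3 reads in the duodenum, which is 0.106 RPKM for a transcript of this length, the cecum was at least 1922-fold and the colon at least 922-fold higher. The next named gene in RefSeq order, LOC101114285, was at 5.79, 3.27 and 4.03 RPKM and did not share the pattern. LOC101115226, with 6 exons, was at 28.8 RPKM in the cecum and 12.7 in the colon, at least 1151-fold and 507-fold higher by the same floor.

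In all, 7 of the 34 had 0 duodenal reads. Exons with under 1 read are not listed in the files, so 0 means that no exon reached 1 read. The longest of these, XM_012145505, has 53 exons and 8715 bases, and every exon was unlisted in the duodenum. It was at 17.9 RPKM in the cecum (7211.91 reads) and 17.5 in the colon (8218.61 reads), at least 2639-fold and 2587-fold above 3 reads, with an upper 95% limit of 0.00833 RPKM in the duodenum. Fractions of a read below the listing limit are not covered by these floors. The pathway annotation that accompanies the paper places this transcript among ATP-binding cassette transporters. That annotation was made for transcripts that differed between regions in data that include these libraries. XM_012110427, with 7 exons, was at 25.1 RPKM in the cecum and 26.2 in the colon, at least 603-fold and 631-fold higher. The remaining ones were KRT74, at least 127-fold and 125-fold, and the pair XM_012112295 and XM_012112296 beside HOXA9, at least 737-fold and 816-fold and at least 207-fold and 408-fold.

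Several of the transcripts without a symbol were among the most abundant. XM_012114484 ranked second of the 34, with 0.249 RPKM in duodenum (18.42 reads), 133 in cecum and 190 in colon, which was 536-fold (347 to 926) and 762-fold (493 to 1317) above the duodenum. XM_012159782 was at 0.286, 32.5 and 54.3 RPKM. All of its 18 duodenal reads lay on 1 of its 3 exons, which is 87.1% of its length and held 89.1% of the cecal and 90.1% of the colon reads. Accessions from a single place followed, XM_012172396 at 0.419, 27.1 and 47.5 RPKM, XM_012108204 at 0.228, 22.5 and 36.5 RPKM and XM_012104847 at 0.183, 17.1 and 25.3 RPKM. A further 2 transcripts that share exons with the first of them exceeded the duodenal limit, at 0.981 and 1.09 RPKM, and reached 86.8 and 107 RPKM in the colon. XM_004004802 was at 0.0314, 16.1 and 15.5 RPKM with 13 duodenal reads over 8153 bases, and 16 of its 17 transcripts met the limits. The rest lay lower. XM_012106180 was at 0.0533, 12.5 and 11.8 RPKM in duodenum, cecum and colon, XM_012109801 at 0.243, 7.99 and 7.33 RPKM, XM_012137912 at 0.483, 9.09 and 6.54 RPKM and XM_012157663 at 0.272, 6.64 and 5.11 RPKM. For each of these 4 the cecum exceeded the colon, for the first 2 by less than counting error, whereas XM_012126984, at 0.493, 7.70 and 14.3 RPKM, was higher in the colon.

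The balance between cecum and colon was limited by the rule to 3-fold but its direction was not. Of the 34, 16 had their higher level in cecum and 18 in colon. Over the 10073 sets, 64.6% were higher in the cecum, and of the 34 it was 47.1%. On the log2 scale, the median of cecum over colon was -0.03 for the 34 and 0.09 for the 10073 sets. With counting error taken into account, 11 lay above equality on the side of the cecum and 15 on that of the colon, and for 8 the 95% interval included equality. At 1.5-fold or more, 5 were on the side of the cecum and 7 on that of the colon, where 6.09% and 2.91% of the 10073 sets were. Overlapping transcripts are counted separately here, and by place the counts were 4 and 6.

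The transcripts most tilted to the cecum were the pair of LOC names, at 2.27-fold for LOC101115226 (95% interval 2.14 to 2.41) and 2.09-fold for LOC101110777 (1.99 to 2.18). AREG followed at 1.91-fold (1.69 to 2.18), then GPR15 at 1.73-fold (1.59 to 1.89) with its overlapping accession. GPR15LG was tilted the same way, at 1.34-fold (1.32 to 1.36). Most tilted to the colon was XM_012111130, at 0.443, 14.3 and 36.3 RPKM in duodenum, cecum and colon, the colon 2.55-fold above the cecum. XM_012104820 was at 0.347, 14.3 and 28.4 RPKM, a colon excess of 1.99-fold. XM_012112296 beside HOXA9 had a colon excess of 1.97-fold, XM_012126984 of 1.86-fold and XM_012172396 of 1.75-fold. DUOX2 was 1.49-fold higher in the colon. HOXA9 and FOXD2 differed little between the regions, by 1.09-fold and 1.11-fold in favour of the colon, and for KRT74 and CDHR1 the interval included equality.

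**Figure D4:**
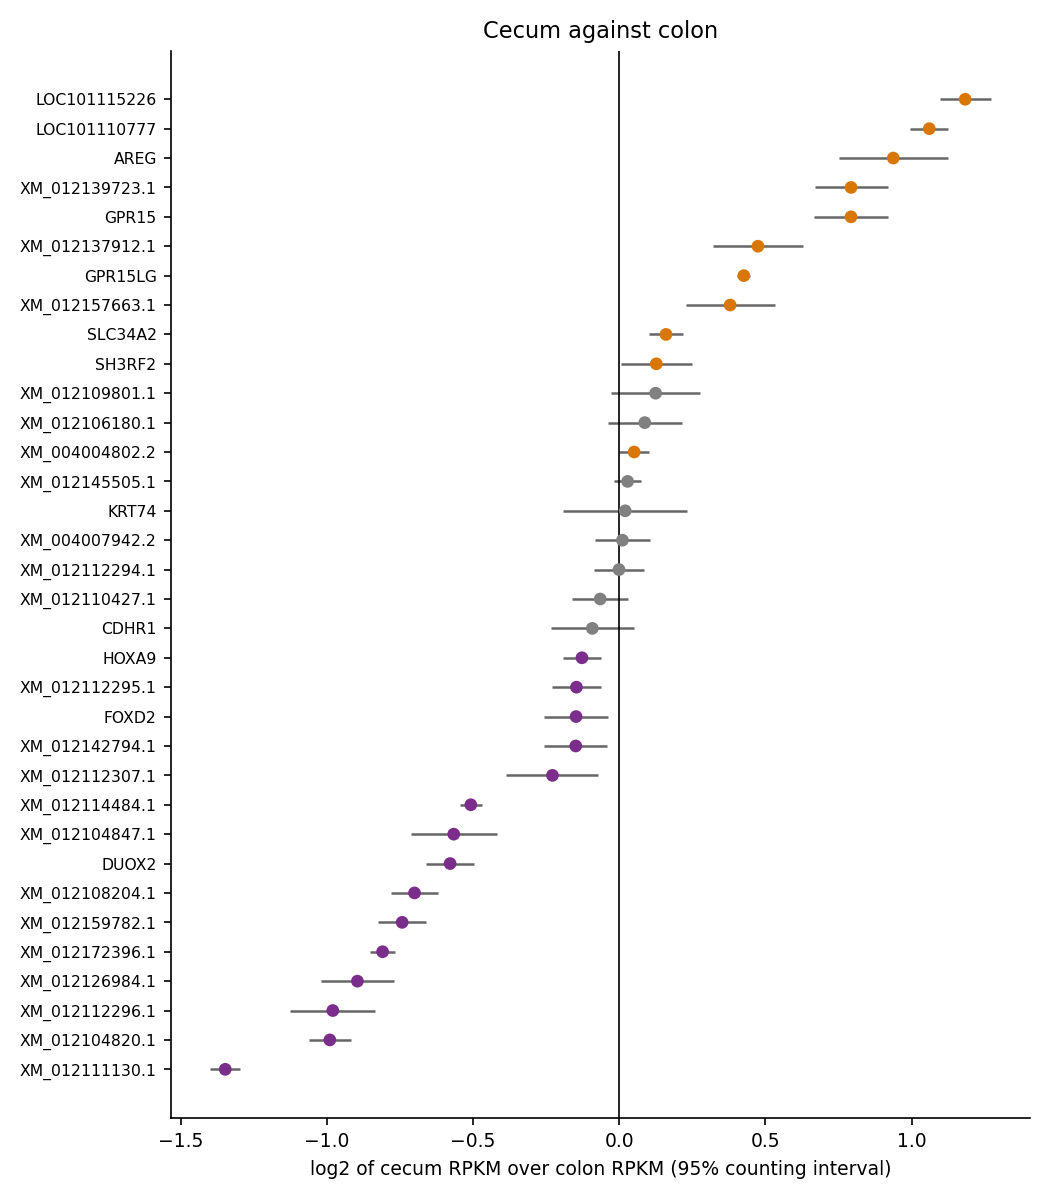
Log2 of cecum RPKM over colon RPKM for the 34 transcripts with the 95% interval from the read counts (grey lines, counting error only), sorted by value. Orange points lie above 0 with an interval that excludes it (11), purple points below 0 (15), and grey points have an interval that includes 0 (8).

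The reads were spread along the transcripts in the large intestine. The 34 have 301 exons, of which 4 had no reads in the cecum and 3 none in the colon, while 154 (51.2%) had none in the duodenum. The level was higher in both cecum and colon than in the duodenum in 294 of the 301 exons. The other 7 exons had 0 reads in the duodenum and 0 in the cecum or the colon. These counts follow largely from the rule, which chose the transcripts by the same reads, and are a description. Exons of overlapping transcripts are counted more than once, and 53 of the 154 lie in XM_012145505. Of the summed length of a transcript's listed exons, a median of 98.0% was covered by reads in the cecum, 97.8% in the colon and 45.1% in the duodenum.

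The few duodenal reads followed exon length in some transcripts and not in others. Of 20 transcripts with 3 or more exons and with duodenal reads, 8 had more than 50% of those reads on 1 exon, and in 6 of the 8 that exon also held more than 50% of the length, of the cecal reads and of the colon reads. In GPR15LG, all 3 exons had duodenal reads and 80.6% of the length was covered. The exon with most of them held 72.7% of the duodenal reads, 72.8% of the cecal reads and 76.4% of the length. Among the 8, the exceptions were XM_012106180 and XM_012109801. The first had 78.3% of 4.6 duodenal reads on an exon that held 43.7% of the cecal reads. The second had 53.5% of 22.97 duodenal reads on an exon that held 33.1% of the cecal reads. Where no exon held more than 50%, the top exon could depart from its share of length in both directions. It held 31.3% of duodenal reads on 10.1% of the length in XM_012114484 and 24.2% on 6.99% in XM_012157663. In XM_012104820 it held 29.4% on 41.9%. In DUOX2, 24 of 34 exons had duodenal reads and no exon held more than 9.14% of them, with 55.7% of the length covered. In HOXA9, the 4 duodenal reads lay on 1 of the 2 exons and covered 11.6% of the length, against 99.2% in the cecum and 99.5% in the colon. XM_012137912 was covered over 88.0% of its length in the duodenum at 0.483 RPKM, the highest share of the 34. SH3RF2 was the least covered in the large intestine, at 70.1% in the cecum and 64.2% in the colon.

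**Figure D5:**
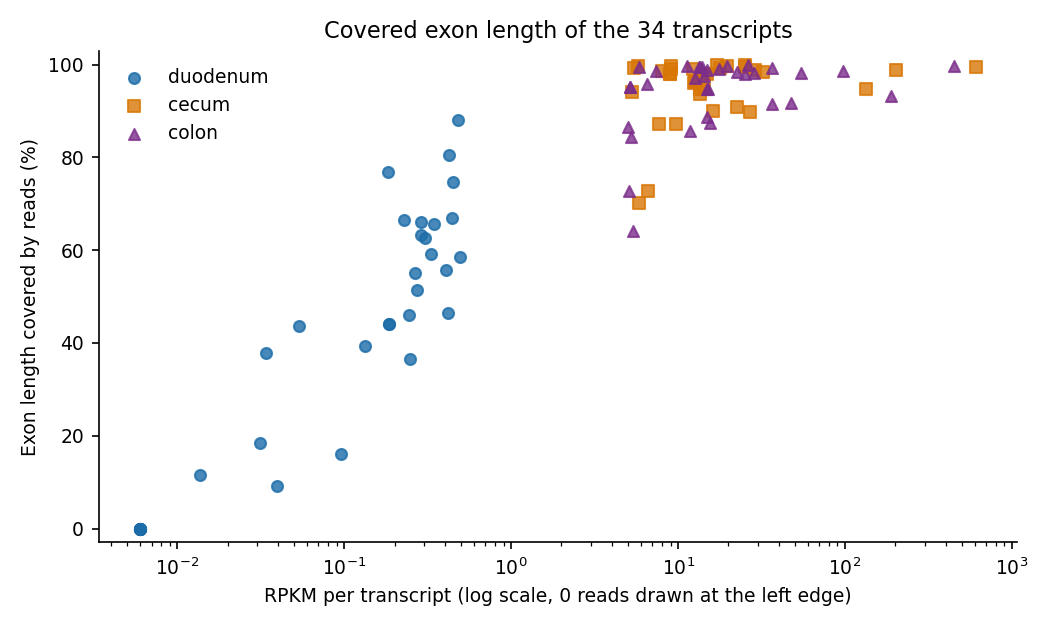
Percent of the length of listed exons covered by reads against RPKM (log axis) for the 34 transcripts in duodenum (circles), cecum (squares) and colon (triangles). Duodenal values run from 0 to 88.0%, while cecum and colon values lie between 64.2% and 100%.

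The transcripts had a median length of 2264.5 bases and a median of 6 exons, against 2374 bases and 9 exons over the 10073 sets, and 3 of them (8.82%) had a single exon, against 3.73%. Of the 3 single-exon transcripts, 2 were the overlapping pair at GPR15. GPR15LG and CDHR1 are adjacent genes in RefSeq order. In the coordinates of the files, 7621 bases lie between GPR15LG and the chosen CDHR1 transcript. Another CDHR1 transcript, outside the limits, starts at 38781302, just past the end of GPR15LG at 38781142. It was at 0.143, 3.16 and 3.23 RPKM in duodenum, cecum and colon. The chosen transcripts of GPR15LG and CDHR1 differed 111-fold in cecal level. GHITM, the gene on the other side of GPR15LG, was at 120, 139 and 112 RPKM in duodenum, cecum and colon. Of 18 genes found within 2 places of the named members, leaving out members, 12 reached 1 RPKM in some region. All 12 were above 0.5 RPKM in the duodenum, a count for which no share over all named genes was computed. PARM1 near AREG was the 1 at least 2-fold higher in both large intestinal regions, at 10.4, 20.8 and 33.3 RPKM. Over all named genes that reached 1 RPKM, 6.7% were. SORD, next to DUOX2 and an enzyme of sorbitol metabolism, ran the other way, at 73.4, 18.2 and 10.1 RPKM.

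The limits cut through a continuous range of levels. Just inside the duodenal limit lay XM_012126984 at 0.493 RPKM, XM_012137912 at 0.483 and SLC34A2 at 0.448, and just outside it XM_012157398 at 0.516, XM_012127726 at 0.540 and XM_012186688 at 0.559. Just above the large intestinal minimum lay AREG at 5.04 RPKM in the lower region, XM_012157663 at 5.11 and GPR15 at 5.16, and just below it XM_004003898 at 4.58, XM_004020534 at 4.01 and GRB14, an adaptor of the insulin receptor, at 3.99. The widest ratios kept were 2.55-fold for XM_012111130, 2.27-fold for LOC101115226 and 2.09-fold for LOC101110777. The limit of 3-fold left out XM_012184180 at 0.0954, 238 and 63.7 RPKM, the carbonic anhydrase gene CA12 at 0.151, 8.45 and 32.6 RPKM, and XM_012103724 at 0, 38.5 and 7.65 RPKM. With the same limits turned to the other regions, 2 transcripts were nearly absent from the cecum alone and 1 from the colon alone, against the 34 for the duodenum. The number of sets that met the turned limits in the remaining regions was not computed. The turned limits also ask that the duodenum lie within 3-fold of 1 large intestinal region while the other is nearly absent. The 3 counts are therefore not shares that can be compared.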

How the data were processed

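RNA of mucosal epithelium from 3 sheep gut regions was sequenced as 100 bp paired-end reads, 1 library per region pooled from 3 ewes. The authors deposited, per exon of each RefSeq transcript, an estimated read count (an expected count, mostly not whole), the RPKM and the percent of the exon covered. The submitters' processing notes name BWA and Bowtie 0.12.2, the paper's methods name Bowtie2, RSEM and the sheep genome Oar_v4.0, and the exon files themselves name no build. From the deposited counts, the RPKM of a transcript was computed as summed reads over summed exon length and the library's read total. Exons with under 1 read are unlisted, and they were counted as 0 where another library lists them. Exons listed in no library were left out of the counts and lengths, which raises the RPKM of transcripts that have such exons. Transcripts sharing an exon of equal position and reads were joined and the first by accession kept, so each value can depend on which transcript stands first. Reads of near-identical copies and of overlapping or antisense genes could not be separated. Symbols were matched by accession for 8461 transcripts (7047 symbols), and a gene on a list was taken by its most abundant transcript. No sequences were used here, and 1 set of joined transcripts and 2 listed genes are not reported here, the genes being left out of their lists as well. Intervals are 95% exact Poisson or binomial ones on rounded reads, and cover counting error only. A duodenal count of 0 was compared at a floor of 3 reads.

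The rule used all 3 libraries and each region is 1 library, so no test was made and no p-value is given. The transcripts, the 16 gene lists and the named genes were chosen with earlier results of these data known. The text names members that are on a list, that are among the 15 most abundant, that have 0 duodenal reads, that are most tilted to cecum or colon, that lie nearest a limit or that neighbour another member. The remaining members are named so that each is accounted for. Partner and related genes (56 looked up, 19 found) were chosen after the values were seen. Tables were handled with pandas 2.3.3 and numpy 2.4.6, intervals came from scipy 1.17.1, and plots were drawn by matplotlib 3.10.9, all under Python 3.11.15. The code of the rule was checked on simulated counts whose duodenal levels were set well away from the limit. That check does not address transcripts near the limit. Alternatives were other limits, scalings, pseudocounts and exon summaries.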

Additional observations from a re-analysis of the deposited data

Results flagged for a closer look

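Transcripts outside the protein-coding set were not used above, and the same limits were applied to them (accessions beginning with XR_ or NR_). With shared exons counted once, 8 met the limits, with RPKM of at least 5 in both cecum and colon in data that had not entered any comparison. One of them shares an exon with the protein-coding XM_012137912. What share the 8 are of all noncoding transcripts that met the limits for the cecum and the colon was not computed. Of the 8, 5 had 0 reads in the duodenum. The highest was XR_001043408, at 0.303, 28.04 and 26.6 RPKM in duodenum, cecum and colon, followed by XR_001026373 at 0, 21.3 and 25.5 RPKM. With 1 library per region, outlying samples and unequal effects between groups were not looked for.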

How the results depend on the processing

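No paired analysis was possible because each region is 1 pooled library and no test was made. The number of transcripts was 34, and it was 13 with a duodenal limit of 0.1 RPKM, 58 with a limit of 1, 191 with a large intestinal minimum of 1 RPKM and 78 with every transcript counted. With a minimum of 10 RPKM, a 2-fold limit, no ratio limit, median-ratio scaling or the median exon RPKM it stayed within 1.5 times, at 23 to 42. The 34 were all among those found with no ratio limit, and 33 were found with median-ratio scaling and 29 with the median exon RPKM. Of the 34, 16 were higher in the cecum, 12 with median-ratio scaling, 16 with median exon RPKM, and 5 at 1.5-fold or more. The share of the 10073 sets higher in the cecum, 64.6%, is for unscaled values. It was not computed with median-ratio scaling, which lowers the cecum against the colon for every transcript, or with the median exon RPKM. The median log2 ratio over the duodenum was 4.69, and it was 6.20 with a pseudocount of 0.1 and 3.85 with a pseudocount of 1. Single ratios lay between 2.37 and 10.56 over these settings, and the rule fixes their sign. The share of exons without duodenal reads was 51.2%, and 47.6% among exons of at least 100 bases. Ratios against few or 0 duodenal reads depend on the pseudocount, and the depth bounds the duodenal level only to an upper limit per transcript. With no replicate library, the spread between animals is unknown.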
